A study of Rattus norvegicus with 7 samples.

Results

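The genes described here are 10 genes of enterochromaffin cells, the serotonin-producing endocrine cells of the gut lining, and of the secretory granules that these cells share with other endocrine cells. They were found by symbol in the deposited gene expression table, and all 10 of 10 were present among the 16468 genes kept from it. Of the series, the 2 RNA libraries were used, 1 from proximal and 1 from distal colon crypts of 14-week-old Sprague Dawley rats, an outbred laboratory strain. Each library was made from material pooled from 7 rats, and the labels give no treatment or genetic change for either group. Crypts are the epithelial pits of the colon, and the labels do not say that endocrine cells were sorted from them. With 1 library per region there is no spread between replicates, no test of the regions could be made here, and every difference below is one between these libraries. The 5 chromatin immunoprecipitation libraries of the series were not analysed here.

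Enterochromaffin cells make serotonin from tryptophan. Tryptophan hydroxylase, encoded by Tph1 outside the brain, makes 5-hydroxytryptophan, and aromatic amino acid decarboxylase, encoded by Ddc, turns this into serotonin. A vesicular monoamine transporter, encoded by Slc18a1, loads serotonin into dense-core granules, where it is held together with granins, acidic proteins that pack the granule and are cut into peptides. Serotonin released from these cells acts on nerve endings and on the epithelium and influences gut motility and secretion.

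Tph1 and Slc18a1, which make and store serotonin, and the abundant granins Chga and Chgb were lower in the distal than in the proximal library, whereas Ddc, Scg2 and Scg5 were 1.23-fold, 1.16-fold and 1.08-fold apart. Levels are given in FPKM, a unit that corrects fragment counts for transcript length and sequencing depth, which allows levels of different genes to be compared. Differences are given as log2((distal FPKM + 1)/(proximal FPKM + 1)), and a gene was counted as at least 2-fold apart where this log2 ratio was 1 or more in either direction and the gene reached 1 FPKM in 1 library. All 10 genes reached that minimum. Scg3 and Tac1 did so only through their proximal level, where they are higher. The count of Tac1 below is therefore no support for a difference. Higher by 2-fold or more in proximal crypts were 5 of 10, namely Slc18a1, Chgb, Tph1, Chga and Tac1, against 3.91% of the 9847 measured genes, and 0 were higher by 2-fold or more in distal crypts, against 3.71%. Their median log2 ratio was -0.94, beside 0.09 for all measured genes. The authors' deposited table called 4 of the 10 lower in distal crypts, Slc18a1, Chgb, Tph1 and Chga, against 2.69% of the 10099 rows it marked as tested. It called 0 of the 10 higher in distal crypts, against 2.73% of those rows, and did not call Tac1. With a minimum of 5 FPKM in 1 library, which leaves out Tac1, 4 of 6 members were higher by 2-fold or more in proximal crypts. The share of all genes at that minimum was 2.98%. The share of all genes higher by 2-fold or more in proximal crypts was 7.68% among genes whose higher level was 1 to 5 FPKM, 3.83% from 5 to 20 FPKM and 2.31% from 20 FPKM. In these classes it was reached by 1 of 4 (Tac1), 1 of 2 (Tph1) and 3 of 4 members (Slc18a1, Chga and Chgb). In whole crypts, fewer enterochromaffin cells and less RNA per cell cannot be told apart.

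**Figure D1:**
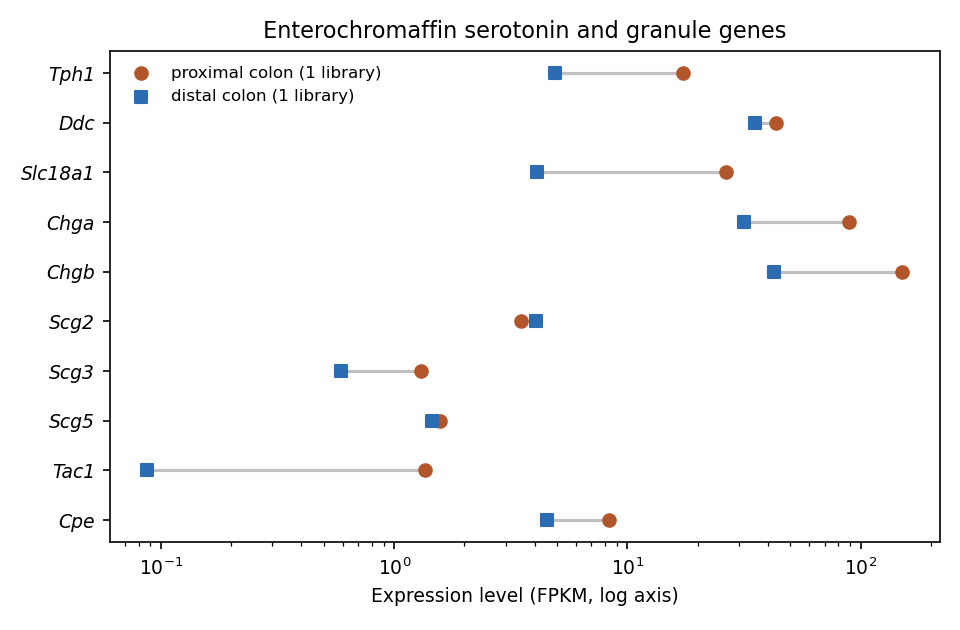
Expression level of each of the 10 genes in FPKM on a log axis, with a circle for the proximal and a square for the distal library (1 library each, so no error bars), joined by a line. The widest gaps among the abundant genes are those of Slc18a1, Tph1, Chgb and Chga, while Ddc lies at 43.4 and 35.3 FPKM.

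Among the genes of serotonin, Tph1, the rate-limiting enzyme of the pathway, stood at 17.3 FPKM in proximal and 4.87 FPKM in distal crypts. The proximal level was 3.54-fold higher. The log2 fold change of Tph1 in the authors' deposited table was -1.82, its q-value was 4.28e-05, and the test statistic implied a standard error of 0.37. An error of this kind reflects the authors' model and carries no information on how rats or preparations vary. In the rn4 build, used for all gene positions here, it lies on chromosome 1 from 97186071 to 97207551.

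Slc18a1, the vesicular transporter, was the member furthest apart among those the authors' deposited table called. It stood at 26.6 FPKM in proximal and 4.08 FPKM in distal crypts, 6.52-fold apart. Its log2 fold change in the authors' deposited table was -2.71 (implied standard error 0.45, q-value 1.77e-07). Among all measured genes its level ranked at percentile 68.5 in proximal and percentile 19.6 in distal crypts, while Chgb ranked at 95.5 and 77.5 and Ddc at 80.7 and 73.1. It lies on chromosome 16 at 22356304 to 22389827.

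Ddc, the decarboxylase, differed less between the libraries than Tph1 and Slc18a1. Its level was 43.4 FPKM in proximal and 35.3 FPKM in distal crypts, 1.23-fold apart. Its log2 fold change in the authors' deposited table was -0.30, with a 95% interval of -0.89 to 0.29 from the implied standard error, and the q-value was 0.951. Ddc is also expressed by cells that make no serotonin, among them cells that make dopamine. It lies on chromosome 14 at 92698636 to 92788635. The ratio of Ddc to Tph1 was 2.52 in proximal and 7.24 in distal crypts.

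Chgb, chromogranin B, was the most abundant member in both libraries, at 150.5 FPKM in proximal and 42.6 FPKM in distal crypts. The difference was 3.53-fold, and the log2 fold change in the authors' deposited table was -1.82 (implied standard error 0.32, q-value 1.74e-06). Chga, chromogranin A, the granin most used as a marker of endocrine cells, stood at 89.1 and 31.6 FPKM in proximal and distal crypts, 2.82-fold apart. Its log2 fold change in the authors' deposited table was -1.50 (implied standard error 0.31, q-value 7.28e-05). Chgb lies on chromosome 3 at 120571736 to 120584874 and Chga on chromosome 6 at 126821399 to 126832565. Together Chga and Chgb made up 69.9% of the summed FPKM of the 10 genes in proximal crypts and 57.5% in distal crypts.

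The other granins were expressed at a small fraction of these levels, and none of them was 2-fold apart on the log2(FPKM + 1) scale, which understates the change of genes this low. Scg2, secretogranin II, stood at 3.50 FPKM in proximal and 4.07 FPKM in distal crypts and was the only one of the 10 genes with the higher value in the distal library. Scg5, which encodes the 7B2 protein, a chaperone of the prohormone convertase PC2, stood at 1.56 and 1.45 FPKM. Scg3, secretogranin III, a granule protein that binds chromogranin A, stood at 1.31 FPKM in proximal and 0.591 FPKM in distal crypts, a plain ratio of 2.21. A smaller pseudocount, 0.1 FPKM, moved its log2 ratio from -0.54 to -1.03. These values do not settle whether the low granins differ, since the 95% intervals that the authors' deposited table implies for the log2 fold change span -0.82 to 1.26 for Scg2, -1.57 to 1.36 for Scg5 and -2.58 to 0.29 for Scg3. For Chga the same interval was -2.10 to -0.89. Scg2 lies on chromosome 9 at 78762661 to 78767970, Scg3 on chromosome 8 at 80467921 to 80514192 and Scg5 on chromosome 3 at 99629194 to 99674523.

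Tac1 encodes the precursor of substance P and neurokinin A, tachykinins made by many enterochromaffin cells and by enteric neurons. It stood at 1.35 FPKM in proximal and 0.0873 FPKM in distal crypts. In olfactory receptor genes of about 942 bases, taken as a scale for low values, a single read was worth about 0.142 FPKM in proximal and 0.113 FPKM in distal crypts. The distal level of Tac1 was under that value and no fold is given for it. Its log2 ratio was -1.11 on the log2(FPKM + 1) scale and -0.32 with a pseudocount of 5 FPKM, and the implied standard error of the authors' deposited table was 2.25 (q-value 0.536). The 15 neuron markers in the table summed to 5.16 FPKM in proximal and 4.87 FPKM in distal crypts, and the part of neurons in the difference of Tac1 was not tested. Tac1 lies on chromosome 4 at 32649666 to 32657636.

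Cpe, carboxypeptidase E, trims basic residues from the ends of peptides inside granules. It stood at 8.31 FPKM in proximal and 4.50 FPKM in distal crypts, 1.85-fold apart and not called by the authors' deposited table (log2 fold change -0.89, implied standard error 0.78, q-value 0.905). The deposited locus of Cpe, on chromosome 16 at 26748592 to 26748988, covers 397 bases, whereas the median locus of the table covers 15718 bases, and only 1.88% of genes had a locus as short as this or shorter. The level of Cpe rests on that short stretch of sequence.

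**Figure D2:**
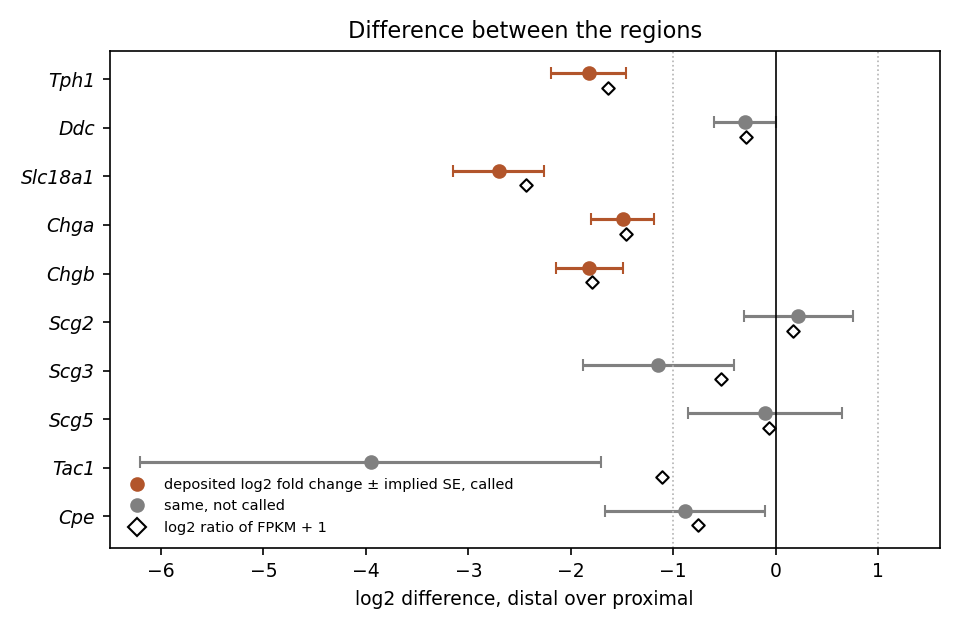
Difference between the regions for each gene on a log2 scale, distal over proximal. Filled circles show the log2 fold change of the authors' deposited table with 1 implied standard error on each side, coloured where that table called the gene and grey where it did not, and open diamonds show the log2 ratio of FPKM + 1. Dotted lines mark 2-fold. Slc18a1, Chgb, Tph1 and Chga lie beyond the left dotted line with errors of 0.31 to 0.45, and the bar of Tac1 extends 2.25 to each side.

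Sequence upstream of the transcription start is shown for 4 members that differ in their values. RefSeq promoters of the GRCr8 build, a later rat assembly than the rn4 build of the deposited table, were matched by symbol for 8 of the 10 genes, and the 250 bases before the start are used. Capitals mark matches on either strand to TATAAA, a core promoter element, to TGACGTCA, the full cyclic AMP response element, and to CANNTG, the E-box bound by basic helix-loop-helix factors such as Neurod1. No match overlapped a match to another of these motifs in the windows printed. Tph1 (chr1:106314629-106314878, minus strand) and Chgb (chr3:140496462-140496711, plus strand) are shown as genes that the authors' deposited table called lower in distal crypts. Scg2 (chr9:88256867-88257116, minus strand) is shown as the granin with the higher value in the distal library, and Tac1 (chr4:36645333-36645582, plus strand) as the peptide precursor, which that table did not call.
Tph1: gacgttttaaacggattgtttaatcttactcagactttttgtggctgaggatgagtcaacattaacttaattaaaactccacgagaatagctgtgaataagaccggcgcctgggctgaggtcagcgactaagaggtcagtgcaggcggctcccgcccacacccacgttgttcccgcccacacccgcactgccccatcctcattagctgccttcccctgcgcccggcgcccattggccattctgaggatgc
Chgb: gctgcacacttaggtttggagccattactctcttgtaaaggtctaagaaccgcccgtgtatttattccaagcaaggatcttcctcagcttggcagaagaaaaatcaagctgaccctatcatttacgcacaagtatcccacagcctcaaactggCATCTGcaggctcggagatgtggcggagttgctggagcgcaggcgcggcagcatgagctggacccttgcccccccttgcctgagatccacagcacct
Tac1: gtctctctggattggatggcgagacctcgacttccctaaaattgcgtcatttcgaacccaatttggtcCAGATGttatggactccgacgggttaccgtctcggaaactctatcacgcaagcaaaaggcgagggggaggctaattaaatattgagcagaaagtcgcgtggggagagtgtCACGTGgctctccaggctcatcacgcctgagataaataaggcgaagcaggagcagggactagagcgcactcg
Scg2: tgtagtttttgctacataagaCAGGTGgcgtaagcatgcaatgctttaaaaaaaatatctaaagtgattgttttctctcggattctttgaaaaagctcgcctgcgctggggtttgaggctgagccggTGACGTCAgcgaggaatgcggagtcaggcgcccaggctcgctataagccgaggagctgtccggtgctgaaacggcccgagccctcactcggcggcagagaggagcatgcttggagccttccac
The Tph1 window held none of the 3 motifs. Chgb held 1 E-box and Tac1 held 2. Scg2 held 1 E-box and 1 TGACGTCA, which starts 123 bases before the transcription start and was the only full element of this kind among the members matched. Of 33469 rat promoter windows of this length, 65.5% held CANNTG, 12.9% TATAAA and 1.59% TGACGTCA. CANNTG was present in 5 of the 7 members with 1 listed start (Chgb, Scg2, Scg5, Tac1 and Cpe), a share near that of all windows. Ddc has 3 listed starts, and 1 of them carried TATAAA. These matches describe the letters in the windows only.

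The make-up of the group differed between the libraries. Levels relative to Chga in the same library do not depend on how the libraries were scaled against each other. Relative to Chga, Slc18a1 stood at 29.8% in proximal and 12.9% in distal crypts. In the authors' deposited table the log2 fold change of Slc18a1 lay -1.21 from that of Chga, with a combined implied standard error of 0.54. Tph1 kept nearer to Chga, at 19.4% and 15.4%, and Chgb stood at 168.9% and 134.9%. Their log2 fold changes lay -0.33 and -0.32 from that of Chga, within the combined implied standard errors of 0.48 and 0.45. Ddc stood at 48.7% of Chga in proximal crypts and at 111.7% in distal crypts, a distance of 1.20 on the log2 scale with a combined error of 0.43. Scg2 stood at 3.92% and 12.9%, a distance of 1.71 with a combined error of 0.61. For Scg5, Scg3 and Cpe the level relative to Chga was also higher in the distal library, but their log2 fold changes lay 1.39, 0.35 and 0.61 from that of Chga with combined errors of 0.81, 0.79 and 0.84. Tac1 was at 1.52% and 0.276%. Of the 9 genes other than Chga, 5 stood higher and 4 lower relative to Chga in the distal library. Chga itself was 2.82-fold lower in distal crypts, so a gene equal in both libraries also stands higher relative to Chga there. How many of all genes stand higher relative to Chga was not counted, so the count of 5 is not read as a result about the members.

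**Figure D3:**
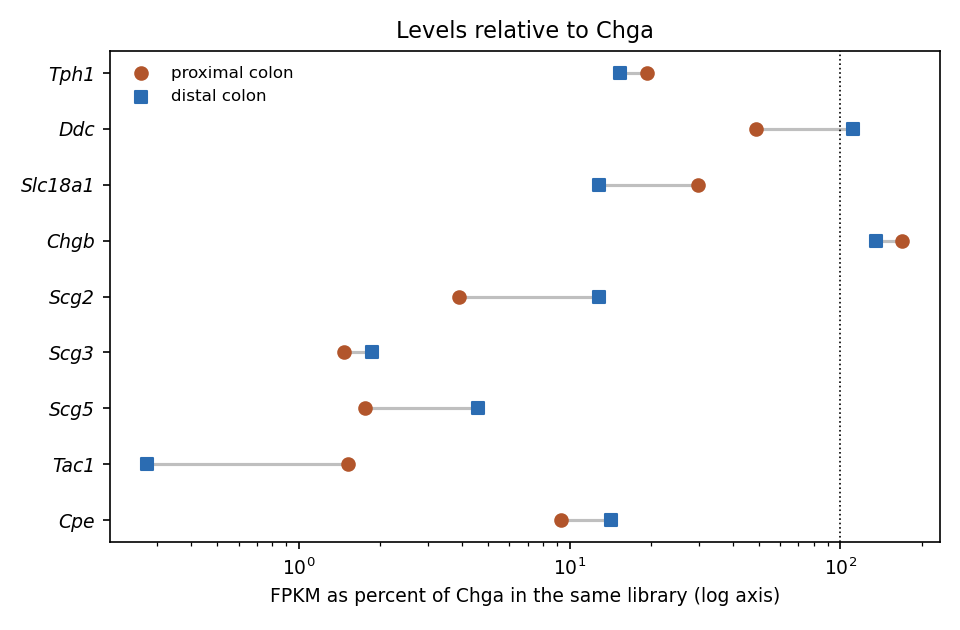
FPKM of each gene as a percent of Chga in the same library, on a log axis, with circles for the proximal and squares for the distal library. The dotted line marks the level of Chga. Slc18a1 lies at 29.8% in proximal and 12.9% in distal crypts, Ddc at 48.7% and 111.7%, and Tph1 at 19.4% and 15.4%.

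The order of the levels also differed. In the proximal library it ran from Chgb over Chga, Ddc, Slc18a1, Tph1, Cpe, Scg2, Scg5 and Tac1 to Scg3, a range of 115-fold. In the distal library Ddc ranked above Chga, and Tph1, at 4.87 FPKM, Cpe, at 4.50 FPKM, Slc18a1, at 4.08 FPKM, and Scg2, at 4.07 FPKM, lay close together. Without replicates the order of such neighbours cannot be resolved. The 10 genes summed to 342.8 FPKM in proximal and 129.2 FPKM in distal crypts.

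Most genes that supply, take up or break down serotonin beside the members were less than 2-fold apart, as were most of all measured genes. Of 18 genes of this list in the table, 13 were measured, with a median log2 ratio of -0.05. Of these, 1 was higher by 2-fold or more in proximal crypts and 0 in distal crypts, against 3.91% and 3.71% of all measured genes. The exception was Slc29a4, a plasma membrane monoamine transporter, at 2.07 FPKM in proximal and 0.475 FPKM in distal crypts (4.36-fold), which the authors' deposited table did not call (q-value 0.0633). Slc18a2, the vesicular monoamine transporter of neurons and mast cells, stood at 3.59 and 3.15 FPKM, so the ratio of Slc18a1 to Slc18a2 was 7.39 in proximal and 1.29 in distal crypts. The serotonin uptake transporter of the epithelium, Slc6a4, stood at 20.4 and 19.7 FPKM and Maoa, which breaks serotonin down, at 91.5 and 66.6 FPKM. Tph2, the tryptophan hydroxylase of neurons, was listed at 0 in both libraries. A listed 0 is not a measure of absence in this table, since Gnas, a signalling gene used by nearly every cell, was also listed at 0 in both. Of 14 serotonin receptor genes only Htr4 reached 1 FPKM, at 9.83 and 14.5 FPKM.

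Of 34 other genes of granule cargo, processing and exocytosis in the table, 23 were measured, with a median log2 ratio of 0.16. On the log2(FPKM + 1) scale 0 of them were at least 2-fold apart. The shares of all measured genes, 3.91% in proximal and 3.71% in distal crypts, apply to this list and to those below. By the plain ratio of their FPKM, some of the 23 genes were more than 2-fold apart. The share of all genes by this ratio was not computed, so their number is not read as a result. Higher in proximal crypts were Snap25, a membrane fusion protein, at 1.34 and 0.319 FPKM (4.21-fold) and Ptprn, a granule membrane protein, at 2.62 and 0.897 FPKM (2.93-fold). The distal level of Snap25 is low, so its fold is uncertain. Higher in distal crypts were Rab3b, a small GTPase of secretion, at 1.97 and 4.90 FPKM (2.49-fold) and Syt13, a synaptotagmin, at 4.34 and 8.74 FPKM (2.02-fold). With a pseudocount of 0.1 FPKM, 2 were counted higher in proximal and 1 in distal crypts, and with a 1.5-fold limit 3 and 4. Of all measured genes, 6.27% and 8.12% were higher in proximal crypts under these settings. The distal shares were not computed, so the distal counts have none beside them. The authors' deposited table called 0 of the 26 it tested. Pcsk1, the prohormone convertase PC1, stood at 0.994 FPKM in proximal and 0.802 FPKM in distal crypts, and Pcsk2 was listed at 0 in both. Many genes of this list also serve secretion in other epithelial cells. Of 12 receptors and channels reported in enterochromaffin cells, 5 were measured, 0 were 2-fold higher in proximal crypts and 1 in distal crypts, with a median log2 ratio of -0.05. That gene was Ffar2, a receptor for short-chain fatty acids, at 11.4 and 29.0 FPKM, which the authors' deposited table did not call (q-value 0.103).

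Among 18 transcription factors of the endocrine lineage, 11 were measured, 0 were higher by 2-fold or more in proximal crypts and 1, Foxa2, in distal crypts, with a median log2 ratio of -0.33. Foxa2, which is expressed in much of the gut epithelium, stood at 8.76 and 40.5 FPKM in proximal and distal crypts. The authors' deposited table called Foxa2 higher in distal crypts (log2 fold change 2.21, q-value 5.78e-07). Neurod1 stood at 2.10 and 1.47 FPKM and Neurog3, the factor that starts endocrine differentiation, at 0.457 and 1.30 FPKM. Chosen after their values were seen, Lmx1a, a factor of enterochromaffin cells, stood at 1.61 and 0.409 FPKM and Fev at 2.51 and 1.12 FPKM. Neither was called by the authors' deposited table (q-values 0.0764 and 0.651). Other factors of the list went either way, with Rfx6 at 1.48 and 0.340 FPKM, Nkx2-2 at 0.971 and 0.913 FPKM and St18 at 0.216 and 0.381 FPKM. Nkx2-2 and St18 did not reach 1 FPKM. With a pseudocount of 0.1 in place of 1 FPKM, 4 factors of this list were higher by 2-fold or more in proximal crypts and 2 in distal crypts. The proximal share of all measured genes was then 6.27%. The distal share was not computed at this setting, so the distal count has none beside it. Insm1 was not analysed here.

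Hormones of other endocrine cells went in both directions. Of 10 measured, 1 was higher by 2-fold or more in proximal crypts and 3 in distal crypts, with a median log2 ratio of -0.19. Ghrl, the ghrelin precursor, stood at 35.7 and 4.53 FPKM in proximal and distal crypts (7.88-fold) and was called by the authors' deposited table (q-value 0.000169). On the distal side, Nmu stood at 5.94 and 35.4 FPKM (5.96-fold, q-value 0.00037 in the authors' deposited table), Cck at 5.27 and 14.4 FPKM and Pyy at 43.1 and 87.3 FPKM, of which Cck and Pyy were not called. Gcg, the precursor of the glucagon-like peptides, stood at 76.3 and 68.2 FPKM and Sst at 17.6 and 12.5 FPKM. Chga and Chgb are made by several kinds of endocrine cell, and their levels here sum over all of them.

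**Figure D4:**
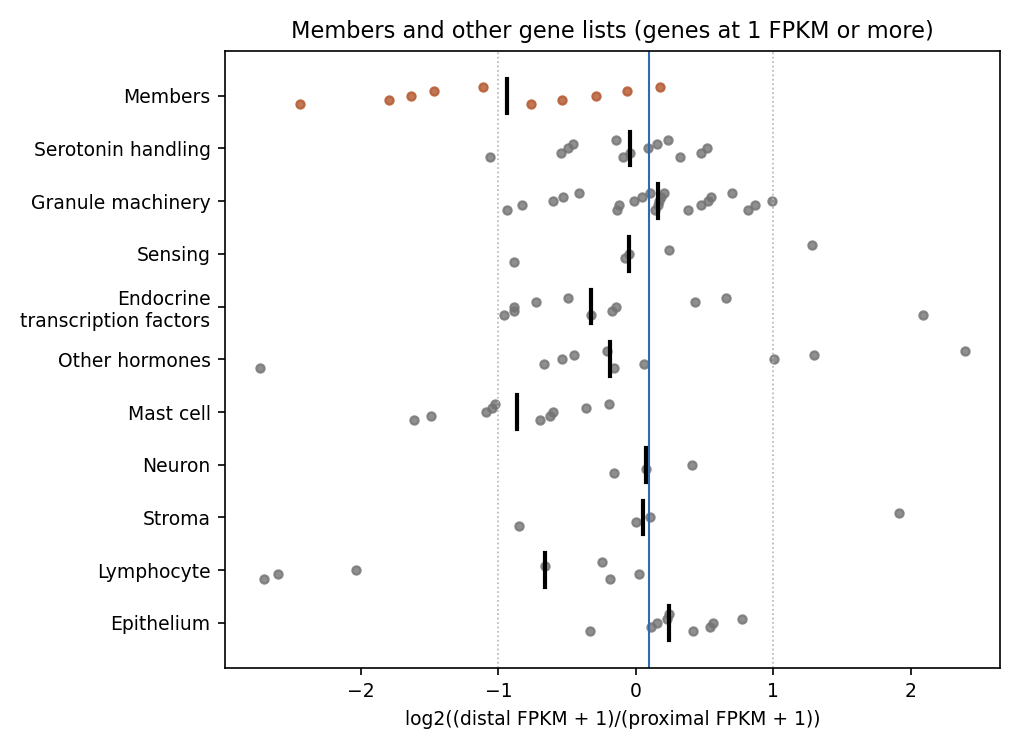
Log2((distal FPKM + 1)/(proximal FPKM + 1)) of every gene at 1 FPKM or more in the 10 members and in the other gene lists, 1 point per gene. Black bars mark each list's median, the blue line the median of all measured genes (0.09) and dotted lines 2-fold. The members' median lies at -0.94 and that of the mast cell list at -0.86, and no gene of the granule machinery list reaches a dotted line.

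Several of these genes are also expressed outside endocrine cells, and markers of such cells were measured alongside. Mast cells, which in rodents also make and store serotonin and can express Tph1, had markers that were lower in distal crypts, as Tph1 was. Of 10 measured mast cell markers, 5 were higher by 2-fold or more in proximal crypts and 0 in distal crypts, with a median log2 ratio of -0.86, and the list summed to 370.9 and 171.0 FPKM. Mcpt1 stood at 59.2 and 18.7 FPKM, Mcpt2 at 275 and 132.7 FPKM and Cpa3 at 7.42 and 2.00 FPKM, each called by the authors' deposited table. The mast cell proteases have near-identical relatives between which reads can be split. Gata2 (3.52 and 1.12 FPKM) and Ms4a2 (4.004 and 1.46 FPKM) were not called, Kit stood at 12.1 and 10.5 FPKM, and Tpsab1 and Tpsb2 were listed at 0 in both libraries. The part of mast cells in the level of Tph1 was not tested.

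Markers of enteric neurons, which can express Chgb, Scg2, Scg3 and Tac1, were mostly listed at or near 0, which, as for Gnas, need not mean that they were absent. Elavl4 stood at 0.0638 and 0.0542 FPKM and Prph at 0.0966 and 0.0853 FPKM, and 7 of the 15 neuron markers in the table were listed at 0 in both libraries. The 3 that reached 1 FPKM were Ret (1.20 and 1.92 FPKM), Tubb3 (1.38 and 1.14 FPKM) and Chat (1.33 and 1.45 FPKM), and 0 of these were 2-fold apart. Uchl1 stood at 0.695 and 0.0848 FPKM and Stmn2 at 0.398 and 0 FPKM, and both distal values lie under the 0.113 FPKM given for a single read. Of the glia markers analysed here, Sox10 was listed at 0 in both libraries and S100b stood at 0.0644 and 0.0539 FPKM. Stroma markers, relevant to Cpe, summed to 19.4 and 16.7 FPKM, with Col1a1 at 0.170 and 0.445 FPKM. The largest part of both sums was Vim, at 13.6 and 7.07 FPKM (1.92-fold), which the authors' deposited table did not call (q-value 0.336). The part of stroma in the difference of Cpe was not tested. Of 4 stroma markers measured, only Des was 2-fold apart, at 0.0398 and 2.91 FPKM. Des was called by the authors' deposited table (q-value 0.000857), though its proximal value lies under the 0.142 FPKM given for a single read. Of 7 lymphocyte markers measured and analysed here, 3 were higher by 2-fold or more in proximal crypts, all called by the authors' deposited table. Ms4a1 stood at 6.32 and 0.202 FPKM (31.3-fold) and Cd79b at 8.80 and 0.502 FPKM (17.5-fold), both markers of B cells, and Ptprc, a marker of leukocytes, stood at 8.97 and 1.44 FPKM (6.24-fold). The plain ratios of Ms4a1 and Cd79b were larger than that of Slc18a1, but they rest on low distal values. On the scale of the olfactory receptor genes, 3 reads were worth 0.339 FPKM in distal crypts, more than the distal level of Ms4a1. Of the T cell markers, Cd3e stood at 1.40 and 1.03 FPKM, Cd3d at 1.05 and 0.294 FPKM, Cd4 at 1.23 and 0.963 FPKM and Cd3g at 6.37 and 6.49 FPKM. The lymphocyte markers summed to 34.9 FPKM in proximal and 11.7 FPKM in distal crypts, and their part in the members' differences was not tested. Of 9 epithelial markers, 0 were 2-fold apart, and Epcam stood at 1490 and 1991 FPKM.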

How the data were processed

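RNA of colon crypts was measured in 1 proximal and 1 distal library, each from the pooled material of 7 rats, per the labels. The submitters' processing notes name CASAVA, TopHat2 and the rn4 build, with no versions. The FPKM values are the authors' and were recognised as such from the deposited columns, while the scaling between libraries and the program behind the table were not stated in the sources used here. Columns of p-value and q-value are also the authors', per the file headers. From 16492 rows, 24 (failed, too low in data, or a repeated gene) were left out. Loci were read as starting at 0, since 1185 of 1186 olfactory receptor loci under 1100 bases then divide evenly into codons of 3 bases. No member shares its locus with another row, unlike 1297 genes of the table. The implied standard error is the deposited log2 fold change divided by the deposited test statistic, and combined errors add squares, as if genes were independent. Its median was 0.67 for genes of 1 to 5 FPKM and 0.31 from 20 FPKM. Sequencing depth was not stated in the sources used here. A single read was read from the commonest p-value among genes listed at 0 in the other library. Log2 ratios and counts were computed with pandas 2.3.3 in Python 3.11.15, with a pseudocount of 1 FPKM. The counting was run on simulated data with large changes planted in well expressed genes and little noise. That run does not test calls of low genes or the noise of real libraries. The members and gene lists were chosen with earlier results of these data known. Named were all members, list members at least 2-fold apart (at most 6 per list) and a set of fixed markers. Some genes were named outside this rule and with their values known. Among them are Lmx1a, Fev, Snap25, Ptprn, Rab3b, Syt13, Vim, Gnas and several neuron and T cell markers. Other pseudocounts, minimums, rescalings, fold limits, the omission of genes sharing a locus and the authors' own calls were tried. Some marker genes are not reported here and were left out of the lists.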

Additional observations from a re-analysis of the deposited data

How the results depend on the processing

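The members' counts of 5 genes higher in proximal and 0 in distal crypts depended on the limit and little on the scaling. The first count was 4 at a pseudocount of 5 FPKM, at a minimum of 5 FPKM and by the authors' deposited table, 6 at a pseudocount of 0.1 FPKM and with a 1.5-fold limit, 5 under both rescalings of the distal library, and 1 with a 4-fold limit (Slc18a1). The second count was 0 in every one of these settings. The share of all measured genes higher in proximal crypts moved as well. It was 6.27% at a pseudocount of 0.1 FPKM, 1.28% at 5 FPKM and 2.98% at a minimum of 5 FPKM. With a 1.5-fold limit it was 8.12%, with a 4-fold limit 0.751%, and under the rescalings 4.34% (median of 0) and 4.72% (same upper quartile). The distal share was not computed under these settings. The members' median log2 ratio was -0.40 with a pseudocount of 5 FPKM and -1.55 over the 6 members left by a minimum of 5 FPKM. The rescalings shifted all genes by 0.09 (median of 0) and 0.17 (same upper quartile) on the log2 scale. For the 6 lists of related genes together, 2 genes were higher in proximal and 5 in distal crypts, against 10 in proximal crypts at a pseudocount of 0.1 FPKM, 1 and 3 at 5 FPKM, 1 in the proximal with a minimum of 5 FPKM, 5 in the proximal with equal upper quartiles, 11 and 10 with a 1.5-fold limit, 1 and 2 with a 4-fold limit, and 1 and 2 by the authors' deposited table. For the 6 lists of cell markers, 8 and 1 became 13 and 2 with a 1.5-fold limit, 3 and 0 with a 4-fold limit and 5 and 0 at a pseudocount of 5 FPKM, and the distal count was 0 at a minimum of 5 FPKM. Low values limit Tac1, Scg3, Scg5 and Scg2. No paired analysis was possible because each region has 1 library.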
